A study of Homo sapiens with 6 samples.

Results

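The ISG15 conjugation system is the set of proteins that attach ISG15, a ubiquitin-like modifier, to other proteins and take it off again. Its members were chosen by gene symbol from the gene count table. They were the modifier ISG15, the activating enzyme UBA7, the conjugating enzyme UBE2L6, the ligase HERC5, its relative HERC6 and the protease USP18. All 6 were among the 34036 genes listed, and all 6 were among the 14476 genes that had enough counts to be tested, although HERC5 and HERC6 passed that filter on 41 counts or fewer per library.

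RNA was sequenced from HepG2 cells, a human line derived from a hepatocellular carcinoma, 48 h after transfection with RNAiMAX. Cells received either a non-targeting siRNA (siControl) or a pool of siRNAs against DGUOK (siDGUOK), the mitochondrial kinase that phosphorylates deoxyguanosine and deoxyadenosine. Each condition had 3 biological replicates, which the series text describes as handled in parallel and sequenced together. The knockdown was transient and was made with a siRNA pool, not in a cloned line. Groups were taken from the sample titles, since the treatment field names siControl for all 6 samples.

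ISG15 is joined to lysines of its targets by a cascade like that of ubiquitin: UBA7 activates it, UBE2L6 carries it and HERC5, which sits on ribosomes, passes it to newly made proteins. USP18 removes it, and USP18 also binds a subunit of the type I interferon receptor and damps its signal. Interferons induce the genes of the whole cascade through factors that bind interferon-stimulated response elements, STAT2 and IRF9 among them, and hepatocytes carry receptors for type I and type III interferons.

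Promoters are shown because the members are known as interferon-induced genes, and their start sites were searched for the letters of that response element. RefSeq promoters of GRCh38.p14, 300 bases each, were matched by symbol for 4 of the 6 members: ISG15, HERC5, HERC6 and UBE2L6, the last with 2 entries. UBA7 and USP18 had no entry. The motif searched was 2 copies of GAAA separated by any 2 bases, on both strands. A longer form, which contains the shorter, had CT after the second copy. The short form was present in 3.57% of 35116 promoters of that length and the long form in 0.273%. Both were present in the promoters of ISG15 and HERC5, and neither was found in those of HERC6 and UBE2L6. Capitals mark the matches in the sequences of ISG15 (chr1:1013247-1013546, plus strand) and HERC5 (chr4:88456869-88457168, plus strand), each written 5′ to 3′.
ISG15: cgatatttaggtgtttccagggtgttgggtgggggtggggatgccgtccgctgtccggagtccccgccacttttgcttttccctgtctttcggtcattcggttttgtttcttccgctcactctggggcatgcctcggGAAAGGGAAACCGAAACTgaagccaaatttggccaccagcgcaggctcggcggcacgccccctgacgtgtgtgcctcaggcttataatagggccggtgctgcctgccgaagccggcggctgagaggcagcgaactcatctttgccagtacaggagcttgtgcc
HERC5: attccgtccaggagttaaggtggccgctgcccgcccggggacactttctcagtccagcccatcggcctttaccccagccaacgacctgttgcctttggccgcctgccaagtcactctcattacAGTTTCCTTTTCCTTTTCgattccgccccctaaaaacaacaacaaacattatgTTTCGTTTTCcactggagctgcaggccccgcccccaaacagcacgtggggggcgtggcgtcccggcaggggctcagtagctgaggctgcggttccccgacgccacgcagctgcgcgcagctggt
In ISG15 the capitals run from base −113 to base −96 relative to the start site and hold 2 overlapping matches to the short form, the second of which is also the match to the long form. In HERC5 there were 3 matches to the short form and 1 to the long form, all on the strand opposite to the gene, between bases −127 and −65. A match is a description of the letters and was not tested as a binding site.

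Library totals on genes were 19065684, 18915508 and 10527216 counts in siControl 1, 2 and 3. They were 18613138, 15978314 and 21334876 counts in siDGUOK 1, 2 and 3. DGUOK, the target of the siRNA, was at 54.4, 53.1 and 48.2 CPM (counts scaled to a common library size with TMM factors) in siControl 1, 2 and 3. It was at 9.08, 10.5 and 6.72 CPM in siDGUOK 1, 2 and 3, so each library matched its label. For DGUOK the log2 fold change was −2.57 (SE 0.19, adjusted p = 1.64e-08, edgeR's quasi-likelihood test with Benjamini-Hochberg adjustment).

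The library siDGUOK 1 stood apart in T cell receptor segments, and siDGUOK 2 in endothelial transcripts. Counts were present for 21057 genes in siDGUOK 1 and for 16205 to 17583 genes in the other libraries. The 173 T cell receptor genes listed summed to 16, 37 and 33 counts in siControl 1, 2 and 3, and to 109877, 1333 and 73 counts in siDGUOK 1, 2 and 3. Most of those in siDGUOK 1 came from TRDJ2, TRDJ1 and TRDJ4, with 58437, 25809 and 15357 counts, each at 0 in every siControl library. Of the CD3 chain genes of the same receptor, CD3D lay higher in all siDGUOK libraries and CD3E overlapped between groups. Neither was called. CD3D had 28, 129 and 48 counts in siControl 1, 2 and 3 and 199, 157 and 178 in siDGUOK 1, 2 and 3, and CD3E had 15, 10 and 9 counts and 20, 59 and 0, in the same order. In siDGUOK 2 the endothelial genes VWF, PECAM1 and CDH5 had 510, 258 and 145 counts. No other library had more than 26 counts of VWF, 61 of PECAM1 or 34 of CDH5. Over all 7 stromal and endothelial markers the sum was 13.0, 16.4 and 12.6 CPM in siControl 1, 2 and 3, and 39.3, 101 and 25.6 CPM in siDGUOK 1, 2 and 3. COL1A1 was the most abundant of these and was called higher (log2 fold change 4.04), PDGFRB was called lower (−1.02), a call lost without any 1 library other than siDGUOK 2, and COL3A1 and DCN were not tested. COL3A1 had 0, 1 and 0 counts in siControl 1, 2 and 3 and 148, 254 and 9 in siDGUOK 1, 2 and 3. DCN was at 0 in all 3 siControl libraries and had 21, 26 and 0 counts in siDGUOK 1, 2 and 3.

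Leukocyte markers showed a smaller shift. The 11 analysed were led by LYZ, and without LYZ the other 10 summed to 7.16, 14.7 and 11.1 CPM in siControl 1, 2 and 3 and to 21.7, 32.0 and 24.0 CPM in siDGUOK 1, 2 and 3. CD79A was called higher (log2 fold change 5.50), with counts of 0, 0 and 7 in siControl and 78, 161 and 209 in siDGUOK, though DESeq2's shrinkage left 0.10. Without siControl 3 its fitted value was 10.22, which depends on the prior count and is no bound. PTPRC, which encodes CD45, had 9, 55 and 2 counts in siControl 1, 2 and 3 and 37, 129 and 58 in siDGUOK 1, 2 and 3. Hepatocyte markers, led by ALB, had counts in every library for all 10 genes, and 9 of the 10 were called lower in siDGUOK, beside 6.68% of all genes tested. Their sum was 54100, 48200 and 47300 CPM in siControl 1, 2 and 3 and 28000, 24400 and 22900 CPM in siDGUOK 1, 2 and 3. The log2 fold change was −1.58 for ALB and −1.90 for FGB, and 0.02 for SERPINA1, which was the marker not called. In bulk RNA, fewer cells of a type and less RNA per cell cannot be told apart, and the part that transcripts of other cell types had in the values of the ISG15 system was not tested.

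**Figure D1:**
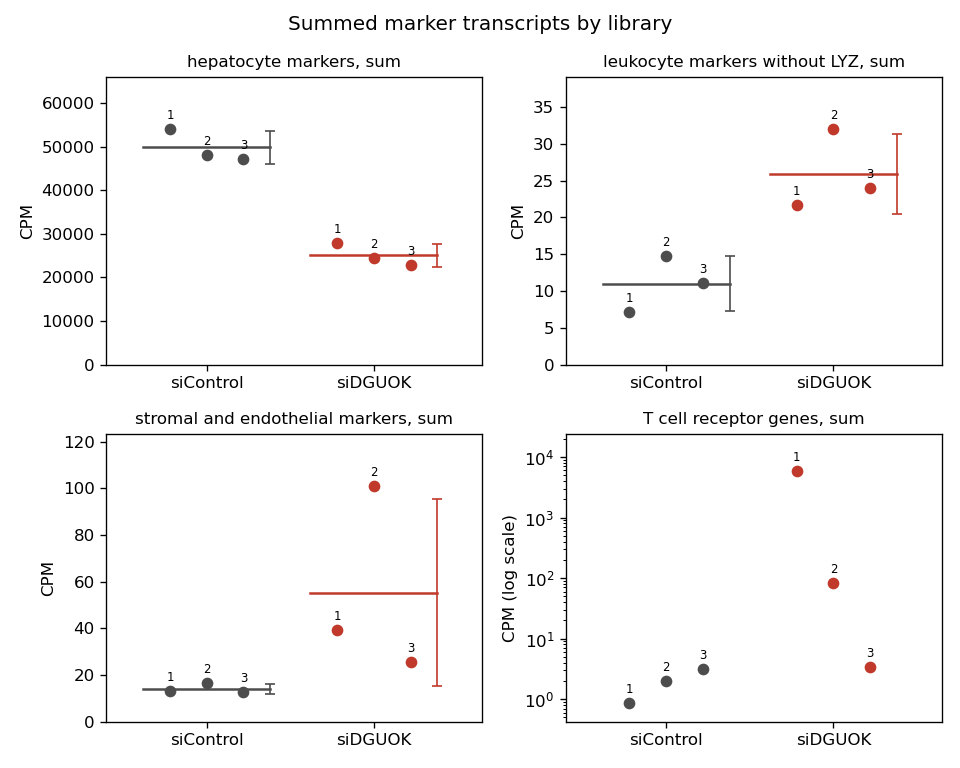
Summed CPM of marker lists in the 3 siControl and 3 siDGUOK libraries, with replicate numbers beside the points. Lines are group means and bars 1 SD (not drawn on the log axis of the T cell receptor panel). siDGUOK 1 was highest for T cell receptor genes (5940 CPM) and siDGUOK 2 for stromal and endothelial markers (101 CPM).

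Of the 6 members, ISG15 was higher after DGUOK knockdown, and no enzyme of its cascade passed the test. In edgeR's test with Benjamini-Hochberg adjustment, 1 of 6 was called (adjusted p under 0.05 and absolute log2 fold change above 0.5), beside 14.1% of all genes tested. That 1 was called higher, beside 7.42% of all genes. In the other direction 0 of 6 were called lower by edgeR or DESeq2, beside 6.68% of all genes; at an unadjusted p under 0.05 there were 2 members, ISG15 and USP18, beside 30.6% of all genes. The 3 siControl and 3 siDGUOK libraries did not overlap for 2 of the 6, beside 36.0% of all genes. ISG15 lay higher in all siDGUOK libraries (18.7% of all genes did) and USP18 lower in all of them (17.3% of all genes did). The median log2 fold change of the members was −0.14, beside 0.02 over all genes tested, with 2 positive and 4 negative values. This median of the members was −0.37 without siDGUOK 2 and −0.31 with siDGUOK 3 as the lone siDGUOK library. The shares of members called and of members without overlap were thus near those of the whole table.

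**Figure D2:**
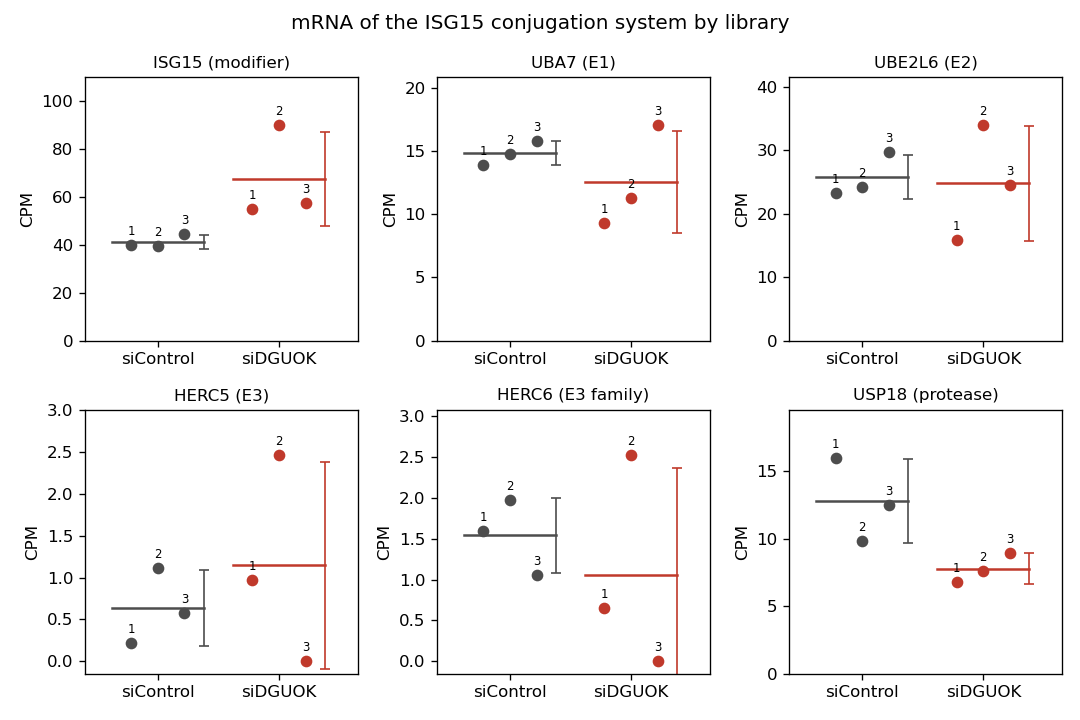
CPM of the 6 members in each library, with replicate numbers beside the points, group means as lines and bars of 1 SD (n = 3 per group). ISG15 lay between 55.1 and 90.2 CPM in siDGUOK libraries, above all siControl libraries, and USP18 between 6.75 and 8.97 CPM, below all of them. The other members overlapped between groups.

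ISG15 itself, the modifier (ENSG00000187608.8), lies on the plus strand of chromosome 1 of GRCh38, from 1001138 to 1014540. It was at 40.0, 39.3 and 44.5 CPM in siControl 1, 2 and 3 and at 55.1, 90.2 and 57.5 CPM in siDGUOK 1, 2 and 3. The siControl libraries were close to each other, siDGUOK 2 stood well above siDGUOK 1 and 3, and the groups did not overlap. Means were 41.3 ± 2.82 CPM in siControl and 67.6 ± 19.7 CPM in siDGUOK (SD, n = 3). The log2 fold change was 0.71 (SE 0.17, adjusted p = 0.00462, edgeR's test with Benjamini-Hochberg adjustment). Without siDGUOK 2, the library with endothelial transcripts, the log2 fold change of ISG15 was 0.45 (adjusted p = 0.0463 from edgeR), under the fold threshold, so that the call was lost. With siDGUOK 3 as the lone siDGUOK library, whose spread was taken to be like that of siControl, it was 0.46 (adjusted p = 0.14 from edgeR). Over all alternatives the adjusted p of ISG15 ran from 5.06e-06 to 0.14. Its exons share 36 bases with another annotated gene, and reads in such bases were left out of the counts or could not be told apart.

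UBA7, the E1 that activates ISG15 (ENSG00000182179.12), lies on the minus strand of chromosome 3, from 49805209 to 49813953. It was at 13.9, 14.8 and 15.8 CPM in siControl 1, 2 and 3 and at 9.35, 11.3 and 17.1 CPM in siDGUOK 1, 2 and 3. The siDGUOK libraries lay on both sides of the siControl libraries: siDGUOK 1 was the lowest of the 6 and siDGUOK 3 the highest. The gene shares 109 exon bases with a microRNA gene, MIR5193. Means were 14.8 ± 0.969 CPM and 12.6 ± 4.01 CPM in siControl and siDGUOK (SD, n = 3). A log2 fold change of −0.23 (SE 0.25) did not pass edgeR's test (adjusted p = 0.606 after Benjamini-Hochberg adjustment), and it was 0.19 with siDGUOK 3 as the lone siDGUOK library.

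UBE2L6, the E2 that takes ISG15 from UBA7 (ENSG00000156587.15), lies on the minus strand of chromosome 11, from 57551656 to 57568284. It had 23.3, 24.2 and 29.7 CPM in siControl 1, 2 and 3 and 15.9, 34.0 and 24.5 CPM in siDGUOK 1, 2 and 3. The lowest and the highest library were both siDGUOK libraries, and siDGUOK 2 was the highest, as it was for ISG15. Means were 25.8 ± 3.46 CPM in siControl and 24.8 ± 9.08 CPM in siDGUOK (SD, n = 3), a log2 fold change of −0.05 (SE 0.23, adjusted p = 0.918, edgeR with Benjamini-Hochberg adjustment). The sign turned without siDGUOK 1 (0.17) and without siControl 3 (0.06).

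HERC5 and HERC6 lie side by side on the plus strand of chromosome 4, HERC6 from 88378739 to 88443097 and HERC5 from 88457119 to 88506163. HERC5 (ENSG00000138646.8), the main ISG15 ligase of human cells, had 4, 21 and 6 counts in siControl 1, 2 and 3 and 18, 40 and 0 in siDGUOK 1, 2 and 3. HERC6 (ENSG00000138642.14), whose mouse counterpart is the ISG15 ligase of that species, had 30, 37 and 11 counts in siControl 1, 2 and 3 and 12, 41 and 0 in siDGUOK 1, 2 and 3. Both genes were highest in siDGUOK 2 and were not counted at all in siDGUOK 3, the deepest library, where a count of 0 allows up to 0.138 CPM (3 counts, counting error only). In CPM, HERC5 was at 0.635 ± 0.456 and 1.14 ± 1.24, and HERC6 at 1.54 ± 0.464 and 1.06 ± 1.31, in siControl and siDGUOK (SD, n = 3). The log2 fold change of HERC5 was 0.83 (SE 1.44, adjusted p = 0.770) and that of HERC6 −0.56 (SE 1.26, adjusted p = 0.832), both from edgeR with Benjamini-Hochberg adjustment. For either gene the standard error exceeded the fold change, and the siDGUOK libraries were spread between 0 and the highest of the 6. The sign turned for HERC5 without siDGUOK 2 (−0.39) and for HERC6 without siDGUOK 3 (0.02).

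USP18, the protease that cleaves ISG15 from its targets (ENSG00000184979.9), lies on the plus strand of chromosome 22, from 18150118 to 18177397. It was at 16.0, 9.80 and 12.5 CPM in siControl 1, 2 and 3 and at 6.75, 7.63 and 8.97 CPM in siDGUOK 1, 2 and 3. All siDGUOK libraries lay below all siControl libraries, and here siDGUOK 2 was in the middle of its group. Means were 12.8 ± 3.12 CPM and 7.79 ± 1.12 CPM in siControl and siDGUOK (SD, n = 3). The log2 fold change was −0.71 (SE 0.28), with an unadjusted p of 0.0208 that did not pass after Benjamini-Hochberg adjustment (adjusted p = 0.0874, edgeR). USP18 kept a negative fold change in every alternative that gave one, and passed in none, with adjusted p between 0.0501 and 0.44. USP41, a near-identical copy of USP18 on the same chromosome, had 17, 0 and 0 counts in siControl 1, 2 and 3 and 13, 0 and 62 in siDGUOK 1, 2 and 3, with a log2 fold change of 1.90 (SE 1.70), which ran from 0.18 without siDGUOK 3 to 7.36 without siControl 1, where both siControl libraries left were at 0, so that the value depends on the prior count and is no bound. Reads that align to both were left out of the table, so the counts of both genes are uncertain.

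Levels between members were compared per kilobase of exon, as CPM per kb in siControl libraries. The scale was chosen after the data were seen, because short T cell receptor segments took 27.4% of the TPM of siDGUOK 1. ISG15 was highest at 47.6 ± 3.26 CPM per kb (SD, n = 3), above 94.5% of the genes tested. UBE2L6 followed at 12.5 ± 1.68, above 77.8% of them. UBA7 (3.26 ± 0.213) and USP18 (3.12 ± 0.762) differed by less than their spread and lay near the middle of all genes, above 46.5% and 45.4%. HERC6 (0.267 ± 0.0804) and HERC5 (0.133 ± 0.0957) were at the bottom, above 8.29% and 4.1% of genes tested, and their libraries overlapped. The modifier was thus the most abundant mRNA of the system in control cells and the ligases the least, on the scale of CPM per kb.

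Within each library, the ratio of ISG15 to an enzyme needs no scaling between libraries. The ratio of ISG15 to UBA7, in counts per kilobase, was 15.1, 13.9 and 14.8 in siControl 1, 2 and 3 and 30.9, 41.8 and 17.7 in siDGUOK 1, 2 and 3. The ratio to UBE2L6 was 4.08, 3.86 and 3.56 in siControl and 8.24, 6.30 and 5.57 in siDGUOK, in the same order. The ratio to USP18 was 11.8, 18.9 and 16.8 in siControl and 38.5, 55.8 and 30.3 in siDGUOK. All siDGUOK libraries lay above all siControl libraries for each of these 3 ratios. Means were 14.6 ± 0.609 and 30.1 ± 12.1 for UBA7, 3.83 ± 0.259 and 6.71 ± 1.38 for UBE2L6, and 15.9 ± 3.68 and 41.5 ± 13.1 for USP18, in siControl and siDGUOK (SD, n = 3). The ratio of ISG15 to another gene separated the groups in this direction for 50.1% of the 14475 other genes tested, so the separation is not particular to the enzymes. Ratios to HERC5 and HERC6 overlapped between groups and rest on few counts.

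**Figure D3:**
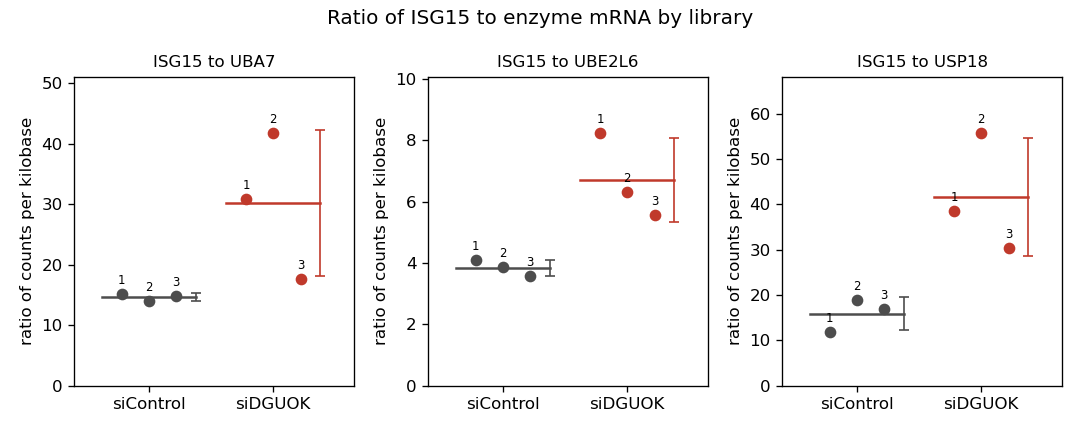
Ratio of ISG15 to UBA7, UBE2L6 and USP18 mRNA in each library, in counts per kilobase of exon, with group means as lines and bars of 1 SD (n = 3 per group). siDGUOK libraries lay above siControl libraries in each panel. For UBA7 the nearest libraries of the 2 groups were siDGUOK 3 at 17.7 and siControl 1 at 15.1. For UBE2L6 they were siDGUOK 3 at 5.57 and siControl 1 at 4.08.

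Over the 6 libraries the members did not follow one another closely. As a description, Pearson's r of log2 CPM (prior count 2) was 0.80 between HERC5 and HERC6, the highest of any 2 members, where 402 of the genes tested were more like HERC5 than HERC6 was. Between ISG15 and its enzymes r was −0.43 for UBA7, 0.35 for UBE2L6 and −0.67 for USP18. The genes most like ISG15, among those with a mean of at least 10 CPM, were MORF4L1P1 (r = 0.999), LYRM2 (0.984) and SLBP (0.979). Those most like USP18 were DNMT3A (0.996), NOTCH2 (0.994) and UBFD1 (0.981). For UBA7 they were CDC23, TNFAIP8L1 and SHKBP1 (0.976, 0.969 and 0.968), and for UBE2L6 BCL7A and SNX33 (0.973 and 0.971). EXOC3, TSPYL2 and KLHL5 were most like HERC5 (0.985, 0.981 and 0.973), and MKL2, MOB3A and TMEM185B most like HERC6 (0.993, 0.991 and 0.987). By edgeR's test 0 of these genes were called, beside 14.1% of all genes tested. The 6 libraries share their 2 conditions, and each member was compared with all 14476 genes tested.

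Genes taken as neighbours on either side of the members were 10 genes other than members, of which 9 were analysed and 7 tested. Genes that share exon bases with a member, such as MIR5193, were not among them. The farthest was GGTLC3, 338947 bases from USP18. ISG15 lies between HES4, 966 bases away, and AGRN, 5580 bases away. Both distances are from the ends of the annotated gene, which begins upstream of the start site whose promoter is printed. HES4 was not called (log2 fold change 0.32, adjusted p = 0.184 from edgeR; 0.17 without siDGUOK 2), and AGRN was lower at −0.43 (adjusted p = 0.000683 from edgeR), under the fold threshold except without siDGUOK 1 (−0.52). With all 6 libraries ISG15 was called and neither of its neighbours was. Of the neighbours, SERPING1, the complement C1 inhibitor, 29103 bases from UBE2L6, was called lower (log2 fold change −1.40, adjusted p = 7.06e-05, edgeR), while UBE2L6 was not. TUBA8 beside USP18 and SMTNL1 beside UBE2L6 were at 0 in all libraries.

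Beyond the members, 14 accessory genes were examined, which are other ligases, conjugating enzymes and proteases described for ISG15 and partners or receptors of ISG15 and USP18. All were tested. By edgeR 0 were called higher and 1 lower, beside 7.42% and 6.68% of all genes tested. An unadjusted p under 0.05 was found for 5 (30.6% of all genes tested had one), and the median log2 fold change was 0.15. The 1 called was ITGB2, the β chain of LFA-1, the receptor through which secreted ISG15 acts on leukocytes. It was at 52.5 ± 3.91 CPM in siControl and 36.6 ± 1.44 CPM in siDGUOK (SD, n = 3) and changed by −0.52 on the log2 scale (adjusted p = 0.0093, edgeR). It fell short of the fold threshold without siControl 2 (−0.46) or siDGUOK 2 (−0.49) and with DESeq2's shrunken fold change (−0.48), and with siDGUOK 3 alone for its group (−0.51) it missed the threshold of adjusted p. UBE2E1, a ubiquitin-conjugating enzyme reported to be modified by ISG15, was higher at 0.47 (adjusted p = 0.00875, edgeR), below the fold threshold except without siControl 2 (0.55). TRIM25, a further ISG15 ligase, was at 0.14 (0.03 to 0.31 with 1 library left out) and was not called. SKP2, which targets USP18 for degradation, had a log2 fold change of −0.60 (adjusted p = 0.0906, edgeR) and passed without siControl 2 (−0.78) or siDGUOK 3 (−0.80), but was at −0.47 without siControl 1, −0.46 without siDGUOK 2 and −0.31 with siDGUOK 3 alone. The other 4 HERC genes, HERC1 to HERC4, gave 0 calls by edgeR, beside 14.1% of all genes tested, and 0 by DESeq2. They gave 0 unadjusted p under 0.05, beside 30.6% of all genes tested, with a median log2 fold change of 0.01.

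Genes that induce the members were examined next. Of 12 receptor, kinase and transcription factor genes of interferon signalling, 11 were tested. By edgeR 0 were called, beside 14.1% of all genes tested, and by DESeq2 0. An unadjusted p under 0.05 was found for 4, beside 30.6% of all genes tested, and the median log2 fold change was 0.07. STAT2, part of the factor that switches on the members, lay close to 0 (0.02). IRF9, which binds STAT2, had 5, 19 and 5 counts in siControl 1, 2 and 3 and 35, 43 and 20 in siDGUOK 1, 2 and 3, with a log2 fold change of 1.61 (SE 1.11, adjusted p = 0.369, edgeR). The value for IRF9 ran from 1.25 without siDGUOK 2 to 2.29 without siControl 2, and was 0.20 with DESeq2's shrinkage and 0.62 with siDGUOK 3 alone. IRF7, which was not tested, had 48 counts in siDGUOK 2 and 11 or fewer in each other library. The lowest of these genes was IFNLR1, the receptor for type III interferons, at −0.76 (adjusted p = 0.103, edgeR), which passed without siControl 1 (−1.05) and was at −0.53 without siControl 2 and −0.63 without siControl 3. Of the 11 tested, 3 lay higher in all siDGUOK libraries (18.7% of all genes did) and 0 lower (17.3% did). IFNAR1 (0.33) and IRF3 (0.37) were among the 3 and were not called. With siDGUOK 3 alone for its group, 1 of these genes was called higher, IRF3 (0.59), and 1 lower, IRF1 (−1.39), which was at −0.47 with all 6 libraries. Of the interferons, IFNG had 22 and 34 counts in siDGUOK 1 and 2 and 0 in the other libraries, and IFNL1 had 8 counts in siControl 1, 4 in siDGUOK 1 and 0 elsewhere. Of 9 interferon genes looked for, these 2 were the ones among the genes listed, so the rest have no value here. IFNG was thus counted in the 2 libraries with the highest sums of T cell receptor genes, and its part in the level of ISG15 was not tested.

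Among 19 proteins reported as targets of ISG15, all had mRNA that was tested. By edgeR 3 rose past both thresholds and 0 fell past them, beside 7.42% and 6.68% of all genes tested, with a median log2 fold change of 0.16. The median was 0.07 without siDGUOK 2 and 0.12 with siDGUOK 3 alone for its group. Those called were CHMP5, of the ESCRT machinery (0.54), DDX58, the RNA sensor RIG-I (0.64), and PML, the scaffold of PML bodies (0.73). CHMP5 was at 91.8 ± 2.30 CPM in siControl and 134 ± 6.04 CPM in siDGUOK (SD, n = 3), whereas DDX58 and PML had under 30 CPM in every library. CHMP5 fell short of the fold threshold without siDGUOK 3 (0.50). DDX58 was no longer called by DESeq2, with mitochondrial or T cell receptor genes out of the library sizes, or in any fit without 1 library. Its fold change was 0.63 in the first 3 of these, with an adjusted p of 0.0505 after either change of library sizes, and 0.44 to 0.76 without 1 library. The PML call was lost with DESeq2 (0.72) and without any 1 library other than siDGUOK 2 (0.63 to 0.81), and with DESeq2's test 1 of the 19 was called. PLCG1 (0.46) and TSG101 (0.48) were higher and MAPK3 (−0.41) lower by adjusted p in edgeR's test, each under the fold threshold with all 6 libraries. PLCG1 was called without siControl 3 or siDGUOK 1 (0.50 in both), and TSG101 without siControl 2 (0.51), siDGUOK 1 (0.51) or siDGUOK 2 (0.55), and both with siDGUOK 3 alone for its group (0.57 and 0.70).

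For comparison with the members, 35 genes known for their induction by interferon were examined, of which 30 were tested. Those called by edgeR were 4 higher and 1 lower, beside 7.42% and 6.68% of all genes tested, with 21 positive and 9 negative log2 fold changes and a median of 0.15. OAS1, which makes the activator of RNase L, was called with 1.29, ISG20, an exonuclease, with 1.15 and IFITM1, a membrane protein that hinders viral entry, with 1.36. DDX58, which was also among the ISG15 targets, completed those called higher, and BST2 was called lower (−0.50), a call lost without siControl 2 (−0.41) or siDGUOK 3 (−0.43), with DESeq2's shrinkage and without a count filter. Without siDGUOK 2, 2 of the 30 were called higher and 1 lower with a median of 0.06, and with siDGUOK 3 alone for its group the numbers and the median came out the same. The IFITM1 call was lost without any of siControl 1 (1.09), siControl 2 (1.36), siDGUOK 1 (1.44) or siDGUOK 2 (0.91), and with siDGUOK 3 alone (0.63). OAS2 had the highest value at 2.29 (SE 0.81, adjusted p = 0.0547, edgeR) and was not called by edgeR with all 6 libraries, although it was by DESeq2 and without siControl 2 (2.95) or siDGUOK 3 (2.61). It was at 1.86 without siControl 1, 1.57 without siDGUOK 2 and 1.20 with siDGUOK 3 alone, and not called in these. MX1 was at 0.77 (adjusted p = 0.236, edgeR), and at 0.42 without siControl 1, 0.14 without siDGUOK 2 and 0.34 with siDGUOK 3 alone. The lowest value was that of IFIT2, at −1.15 (SE 1.62, adjusted p = 0.709, edgeR). It had 17, 6 and 13 counts in siControl 1, 2 and 3 and 19, 1 and 0 in siDGUOK 1, 2 and 3. Like ISG15 and HERC5, MX1, RSAD2 and SAMD9L were highest in siDGUOK 2, with 332, 46 and 61 counts, whereas ISG20 was highest in siDGUOK 3. CMPK2, IFI44 and IFI44L, which were not tested, were at 0 in all siControl libraries and in siDGUOK 3. In siDGUOK 1 and 2, CMPK2 had 18 and 6 counts, IFI44 4 and 0, and IFI44L 4 and 21.

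**Figure D4:**
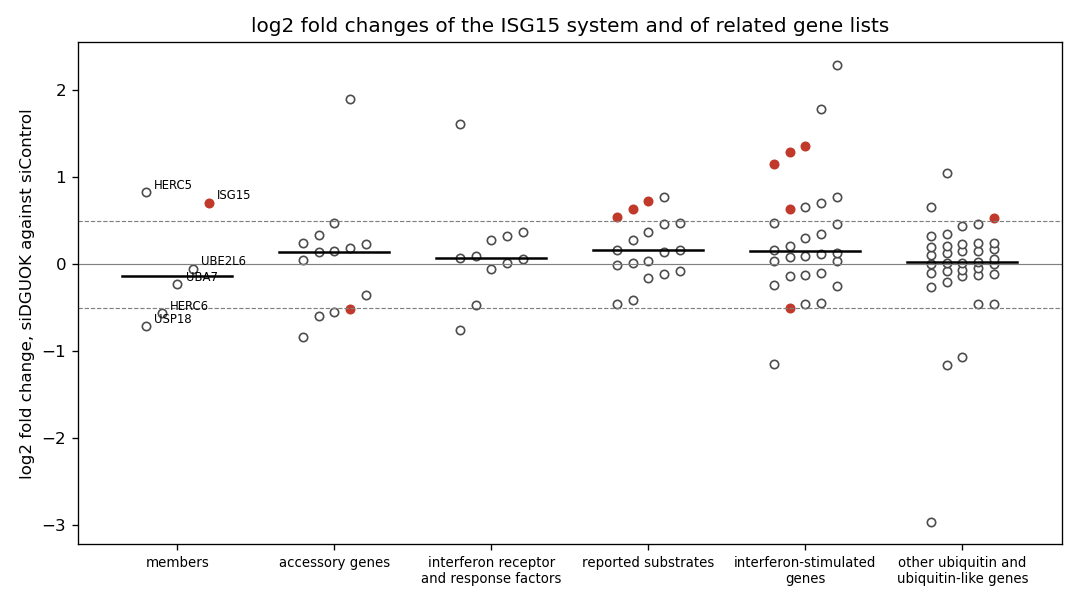
log2 fold change (siDGUOK against siControl) of each gene tested, by list, with called genes in red, medians as black bars and the threshold of 0.5 as dashed lines. Members are named and left out of the other lists; a gene may be in more than 1 of those. ISG15 was the 1 member called, and medians of the lists drawn lay between −0.14 and 0.16.

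Genes with the response element letters printed for ISG15 and HERC5 were called in both directions, as were genes of the whole table. Of the genes whose promoter holds the short form, 387 were tested, and edgeR called 30 higher and 29 lower, with a median log2 fold change of −0.04. Of those with the long form, as in ISG15 and HERC5, 36 were tested, 4 were called higher and 2 lower, and the median was 0.12. Without siDGUOK 2 the latter counts were 1 and 2 and the median −0.04. Over all 14476 genes tested, 1074 (7.42%) were called higher and 967 (6.68%) lower, and the median was 0.02. ISG15 and HERC5, with the same letters near their start sites, differed in level by the widest margin of any 2 members.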

How the data were processed

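The authors deposited whole-number gene counts for 6 HepG2 libraries, neither normalized nor averaged. From paired-end reads they removed tRNA, rRNA, adapter and spike-in sequences, aligned to GRCh38 with Gencode annotation in STAR 2.6.1, took out reads of low complexity and ran featureCounts 1.6.5 at default settings with a minimum quality of 10. At those settings strand is not used and a read with several alignments or genes is dropped, which makes counts of overlapping or near-identical genes uncertain. Bowtie 1.1.2 is listed in the submitters' processing notes without a role.

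Counts were filtered (filterByExpr, minimum count 10), scaled by TMM and compared by the robust quasi-likelihood test of edgeR 4.0.16 in R 4.3.3, with condition as the term. Benjamini-Hochberg adjustment covered the 14476 genes tested. Calls required an adjusted p under 0.05 together with an absolute log2 fold change above 0.5. Standard errors were derived from the fold change and the F statistic. Replicates of a group were distinct libraries, with a chi-square per degree of freedom of 10.7 to 25.9 between them. Positions and exon lengths came from a later Gencode release on GRCh38 than the counts.

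The members and lists were chosen with earlier results of these data known. Genes named are the members, DGUOK, neighbours of the members, up to 3 genes most correlated with each, and genes of the lists that were called, at an extreme or at 0; PTPRC, CD3D, CD3E, IRF1 and the T cell receptor genes were added with their values in view. Of the genes looked at, 3 on the lists were taken off them after the results were known, and these and 1 correlated gene are not reported here. Alternatives used DESeq2 1.42.0 with and without shrinkage by apeglm 1.24.0, other scalings, filters and thresholds, replicate number as a block, and each library left out in turn. Chosen after seeing the data were leaving out siDGUOK 1 and 2 together, taking T cell receptor genes out of library sizes, and CPM per kb or TPM without those genes in place of TPM. The scripts were tested on simulated counts.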

Additional observations from a re-analysis of the deposited data

How the results depend on the processing

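Of 98 log2 fold changes of members under the alternatives, 90 kept their direction and side of the threshold, 2 were weaker and 6 reversed. Of 615 values of other genes named, IFIT2 not among them, 542 kept both, 44 lost a call, 23 gained one and 6 reversed. The number of members called (1) was 0 without siDGUOK 2 and otherwise 1 with a library left out, 0 without both siDGUOK 1 and 2, and 0 at a log2 threshold of 1.5, where 428 genes were called in place of 2041. With each library left out in turn, genes called ran from 1704 to 1935. The log2 fold change ran from 0.45 to 0.82 for ISG15, from −0.53 to −0.08 for UBA7, from −0.34 to 0.17 for UBE2L6, from −0.39 to 1.55 for HERC5, from −2.24 to 0.02 for HERC6 and from −0.88 to −0.51 for USP18. It ran from −0.20 to 0.16 for STAT2, −0.06 to 0.06 for SERPINA1, and −0.56 to −0.46 for ITGB2. Without both siDGUOK 1 and 2, an alternative chosen after seeing the data, it was 0.46 for ISG15, 0.19 for UBA7, −6.49 for HERC5, −7.76 for HERC6, −0.01 for HES4 and −0.03 for SERPINA1; HERC5 and HERC6 are at 0 in siDGUOK 3, so their values depend on the prior count and are no bound. The causes were not tested. A mean TPM above 10 left out HERC5, HERC6 and USP18, and a mean CPM of at least 1 left out HERC5.

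Correlations of siControl with siDGUOK libraries about their group means lay between −0.023 and 0.024. Those of same-numbered libraries were 0.024, 0.017 and −0.0022, the highest of their library for siControl 1 and 2 and not for siControl 3. With replicate number as a block, 2077 genes and 1 member were called, and ISG15 was at 0.68, UBA7 at −0.28, HERC5 at 0.20, HERC6 at −1.67 and USP18 at −0.70. HERC5 and HERC6 had 41 counts or fewer per library.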

Other observations

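Other ubiquitin and ubiquitin-like systems were examined beside the ISG15 system, as 37 genes for modifiers, activating enzymes, conjugating enzymes and proteases, all tested. In edgeR's test with Benjamini-Hochberg adjustment, 1 was called higher and 0 lower, beside 7.42% and 6.68% of all genes tested. With DESeq2 it was 1 and 1. An unadjusted p under 0.05 was found for 10 (30.6% of all genes tested had one), and the median log2 fold change was 0.03. By kind, with ISG15, UBA7 and USP18 counted in, the median was 0.20 for 13 modifiers and 0.00 for 10 activating enzymes. It was 0.08 for 8 conjugating enzymes and −0.46 for 9 proteases, of which 2 were positive and 7 negative. Of these proteases 0 were called, beside 14.1% of all genes tested. Of the 37, the 1 called was UBA3, a subunit of the NEDD8 activating enzyme (0.53). It was called with all 6 libraries, but not without siControl 2 (0.48), siControl 3 (0.52) or siDGUOK 2 (0.44), with DESeq2's shrunken fold change (0.46) or with siDGUOK 3 alone for its group (0.39).

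UBD encodes FAT10, another modifier that interferon and tumour necrosis factor induce. It had 45, 88 and 21 counts in siControl 1, 2 and 3 and 10, 0 and 13 in siDGUOK 1, 2 and 3, lower in all siDGUOK libraries. Its log2 fold change was −2.96 (SE 1.08, adjusted p = 0.0644, edgeR), and it was called by DESeq2 and with a mean CPM of at least 1 as the filter. The conjugating enzyme UBE2M of NEDD8 (0.46) and the modifier ATG12 (0.44) were higher by adjusted p in edgeR's test, each under the fold threshold with all 6 libraries. UBE2M (0.61) and ATG12 (0.53) were called without siControl 3.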
